A study of Mus musculus with 20 samples.

Results

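The Fc gamma receptor genes Fcgr1, Fcgr2b, Fcgr3 and Fcgr4 encode the cell-surface receptors through which mouse macrophages bind IgG antibodies. They were 4 of 21887 protein-coding genes in the GRCm38 annotation. The genes were chosen by name, with earlier results of these data known, and every peak of histone H3 lysine 27 acetylation (H3K27ac) that overlapped a gene or the 25 kb on either side of it was taken as belonging to that gene. These windows held 18 of 21013 consensus regions, meaning stretches where peaks of 2 or more of the 10 libraries overlap. H3K27ac marks active promoters and enhancers. It was measured by ChIP-seq (immunoprecipitation of chromatin, then sequencing) in RAW264.7, a mouse monocyte-macrophage line that becomes osteoclast-like when given RANKL, the cytokine that drives osteoclast formation. The labels also name bone marrow as the source of this line.

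The untreated group and the RANKL group (50 ng/ml) had 3 libraries each, as did the group given RANKL together with I-BET (500 nM), a small molecule that keeps BET proteins off acetylated histones. I-BET alone had 1 library, which carried the replicate number 3. All cells were RAW264.7, and treatment lasted 4 h. Each library came with 1 list of peaks, and the 10 input libraries were not analysed here. The comparisons ask where acetylation around these genes differs in the first hours after RANKL, and where it differs when BET proteins are blocked.

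Fc gamma receptors couple antibody-coated particles to the cell. Fcgr1 encodes the high-affinity activating receptor, and Fcgr3 and Fcgr4 encode activating receptors of lower affinity. These 3 signal through the common gamma chain, encoded by Fcer1g, whose tyrosine motif (ITAM) recruits the kinase Syk and leads to phagocytosis. Fcgr2b encodes the inhibitory receptor, which carries an inhibitory motif and recruits the phosphatase SHIP1, encoded by Inpp5d. Osteoclast precursors use the same ITAM signal beside RANKL, and immune complexes can act on them through these receptors.

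Fcgr1 lies on chromosome 3 from 96282909 to 96293969 on the minus strand, away from the others. The other members share a stretch of chromosome 1, where Fcgr2b spans 170960558 to 170976071 (minus strand), Fcgr4 spans 171018926 to 171029761 (plus strand) and Fcgr3 spans 171051169 to 171065915 (minus strand). The windows of Fcgr2b and Fcgr4 shared 7.15 kb and those of Fcgr4 and Fcgr3 shared 28.6 kb, so peaks in these parts counted for both genes. The farthest consensus region inside the limit lay 21.9 kb from a gene (Fcgr2b), and the nearest outside it lay 26.3 kb from Fcgr1 and was present in 8 lists. The values of Fcgr3 and Fcgr4 are therefore not independent of each other.

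Fcgr3 has 2 listed promoters, of which only the first was printed, searched for motifs and used for distances. The 250 bases upstream of 1 annotated start site of each gene (RefSeq, GRCm38.p6) are shown. Several of the peaks below lie on them, and they differ in the motifs they hold. Capitals mark matches to the PU.1 core GAGGAA, which reads TTCCTC on the strand printed. PU.1 is the myeloid master transcription factor.
Fcgr1 (chr3:96293970-96294219, minus strand): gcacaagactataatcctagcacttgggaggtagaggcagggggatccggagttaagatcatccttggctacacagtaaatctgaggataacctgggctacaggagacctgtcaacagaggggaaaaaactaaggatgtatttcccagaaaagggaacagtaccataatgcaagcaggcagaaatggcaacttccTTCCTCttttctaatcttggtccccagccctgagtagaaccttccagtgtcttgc
Fcgr3 (chr1:171059404-171059653, minus strand): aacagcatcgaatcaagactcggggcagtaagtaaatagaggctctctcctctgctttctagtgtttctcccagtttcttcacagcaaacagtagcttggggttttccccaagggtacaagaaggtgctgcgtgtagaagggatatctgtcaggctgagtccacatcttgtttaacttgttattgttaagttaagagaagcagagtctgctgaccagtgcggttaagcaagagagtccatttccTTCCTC
Fcgr4 (chr1:171018676-171018925, plus strand): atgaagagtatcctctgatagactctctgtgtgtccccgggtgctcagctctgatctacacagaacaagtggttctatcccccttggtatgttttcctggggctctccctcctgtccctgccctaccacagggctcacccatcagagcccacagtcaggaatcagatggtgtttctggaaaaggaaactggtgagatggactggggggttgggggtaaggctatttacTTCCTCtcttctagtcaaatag
Fcgr2b (chr1:170976072-170976321, minus strand): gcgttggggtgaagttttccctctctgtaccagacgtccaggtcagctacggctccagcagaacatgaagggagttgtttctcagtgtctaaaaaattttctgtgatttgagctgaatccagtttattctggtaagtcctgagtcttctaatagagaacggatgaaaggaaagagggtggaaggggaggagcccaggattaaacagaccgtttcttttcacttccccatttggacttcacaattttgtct

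The search covered both strands of 300 bases, from 250 before to 50 after the start site. The PU.1 core began 55 bp before the start site in Fcgr1, 6 bp before it in Fcgr3 and 22 bp before it in Fcgr4, and had no match in this window of Fcgr2b. Of the 17492 promoters listed for protein-coding genes, 27.5% held the PU.1 core. The core GGAAA, bound by NFAT factors such as the osteoclast regulator Nfatc1, had 2 matches each in Fcgr1, Fcgr2b and Fcgr3 and 3 in Fcgr4, in a background of 60.2%. The AP-1 sequence TGANTCA and the E-box CACGTG had no match in the 4 windows, against 7.08% and 7.90% of promoters. These are letter matches and no measure of binding.

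The libraries numbered 1 and 3, with 13368 to 17794 peaks over 16.1 to 25.9 Mb, are compared below. Those numbered 2 are shown apart, because the untreated list held 9893 peaks (7.79 Mb), the RANKL list 141905 (184.6 Mb) and the RANKL+I-BET list 6041 (3.44 Mb). Read counts are not part of the lists and the depth is unknown, so a missing peak does not show that acetylation was absent. RAW264.7 identity was checked by peaks within 1 kb of a gene end, which 5 to 8 of 8 macrophage markers had in each list. Of 27 markers of B, T, NK and mast cells, neutrophils and fibroblasts, 0 to 2 had one in 9 lists, while 18 of 27 did in RANKL replicate 2, with all 5 B cell and all 5 T cell markers among them. The part of this in the values of RANKL replicate 2 was not tested. RANKL replicate 2 also placed 20 of its 33 peaks in the Fc receptor windows where no other list had one, against 1 of the 89 peaks of the other lists. The cells are measured in bulk, so a change in the number of cells that carry a mark and a change in the mark per cell cannot be told apart. The labels name no separate cultures, and the spread between replicates may be technical.

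Fcgr1 had the longest acetylated length of the 4 in every library numbered 1 or 3, counting peaks over the histone genes described below. Peaks covered 7.83 kb of its 61.1 kb window in untreated replicate 1 and 10.3 kb in replicate 3. With RANKL they covered 10.2 and 10.5 kb, under both agents 10.6 and 9.30 kb, and under I-BET alone 10.2 kb. The lowest value was that of untreated replicate 1, the shortest of these lists, and the groups overlapped. The mean over the 6 libraries of the 3 groups, with those peaks counted, stood at percentile 95.2 among 12186 genes, whose median was 2.29 kb. Group means were 10.4 ± 0.226 kb under RANKL, 9.94 ± 0.902 kb under both agents and 9.07 ± 1.74 kb untreated (SD, n = 2 each), and neighbours in this order differed by less than the larger SD. In the replicate 2 lists the length was 4.63 kb untreated, 15.0 kb under RANKL and 1.75 kb under both agents, in the order of the total lengths of these lists.

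Much of the acetylated length around Fcgr1 lay over other genes. Histone genes H4c14, H3c13 and H2bc18, which encode core histones, lie 12.7 to 19.6 kb from its downstream end, and 2 consensus regions over them took 56.8% to 65.4% of the covered length in the 7 lists numbered 1 or 3. In untreated and RANKL+I-BET replicate 2 they took 100%. The region over H4c14 (chromosome 3, 96261826 to 96265143) was the 1 region of the 18 found in all 10 lists. Outside the histone regions, peaks covered 2.75 and 4.23 kb in untreated, 4.34 and 4.25 kb in RANKL and 4.57 and 3.22 kb in RANKL+I-BET replicates 1 and 3, and 3.89 kb under I-BET alone. Both RANKL values lay above both untreated values, with replicate 3 at 4.249 against 4.23 kb. Over whole windows 53% of all genes were higher without overlap in this comparison, and Fcgr1 was not. The RANKL+I-BET values overlapped those of both other groups. In untreated replicate 1 Fcgr1 without the histone regions (2.75 kb) was below Fcgr4 (3.37 kb).

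**Figure D1:**
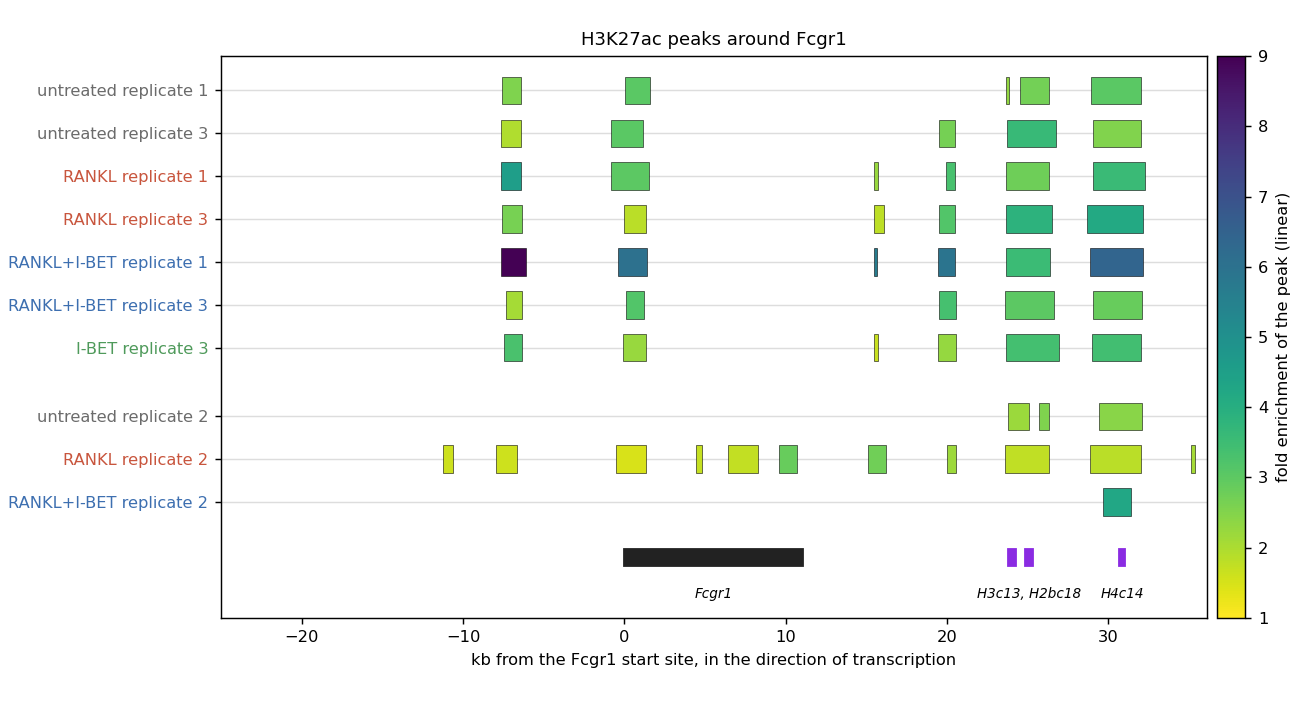
Peaks in the Fcgr1 window of each library, by distance in kb from the Fcgr1 start site, with fold enrichment as colour (linear, over the caller's local background); the black bar is Fcgr1 and the purple bars are histone genes. The start site held a peak in 8 of 10 lists, the element 15.4 kb downstream was absent from every untreated list, and the 2 regions at the histone genes were present in nearly every list.

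At the Fcgr1 start site, 8 of 10 lists had a peak within 1 kb, the exceptions being untreated and RANKL+I-BET replicate 2. Its fold enrichment, the authors' ratio over local background, was 3.04 and 3.06 in untreated replicates 1 and 3, 3.01 and 1.84 under RANKL, 6.05 and 3.18 under both agents and 2.23 under I-BET alone. The median fold of all peaks ran from 2.41 to 3.47 over these lists, and was highest in RANKL+I-BET replicate 1. The 300 base promoter window was covered whole in untreated replicate 3, RANKL replicates 1 and 2 and RANKL+I-BET replicate 1, and over 161 bases under I-BET alone, 52 in RANKL replicate 3 and 15 in untreated replicate 1. In RANKL+I-BET replicate 3 the peak lay inside the gene and did not reach it. Peaks at a start site were common, at 34.1% to 43.8% of 17492 genes in these lists.

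A region 6.3 kb upstream of the Fcgr1 start site (96300286 to 96301624) was present in all 7 lists numbered 1 or 3. Its fold was 2.55 and 1.96 in untreated, 4.56 and 2.65 under RANKL, 9.05 and 2.09 under both agents and 3.29 under I-BET alone. The value of 9.05 was the highest of any peak in the windows of the 4 genes. RANKL replicate 2 held it at 1.60. Replicate 1 exceeded replicate 3 in each of the 3 groups. RANKL replicates 1 and 3 lay above both untreated values, and RANKL replicate 2 lay below them. The RANKL+I-BET values overlapped both other groups. The median fold of all peaks was 2.62 and 2.41 in untreated replicates 1 and 3 and 3.11 and 2.54 in those of RANKL. How often other regions show this order was not computed.

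A region 15.4 kb downstream of the Fcgr1 start site, past the end of the gene (96277860 to 96278521), was absent from the 3 untreated lists and present in the 3 RANKL lists. Its folds under RANKL were 2.23, 2.73 and 1.80 in replicates 1, 2 and 3. It was present in RANKL+I-BET replicate 1 (5.67) and under I-BET alone (1.67), and absent from RANKL+I-BET replicates 2 and 3. This was the 1 of 18 regions gained with RANKL, meaning held by each RANKL list and no untreated list, in a background of 4.94% of regions by the lists numbered 1 and 3 and 3.42% by all lists. No region of the 18 was lost, against 0.19% and 0% of all. A share of 5.56% is near the background and is no result about the receptor genes. A neighbouring region (96273433 to 96274551), 19.4 kb downstream, was missing from untreated replicate 1 but present in replicate 3 (2.67) and in all 3 RANKL lists (3.32, 2.17 and 3.17), which shows how 1 list decides such a call.

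**Figure D2:**
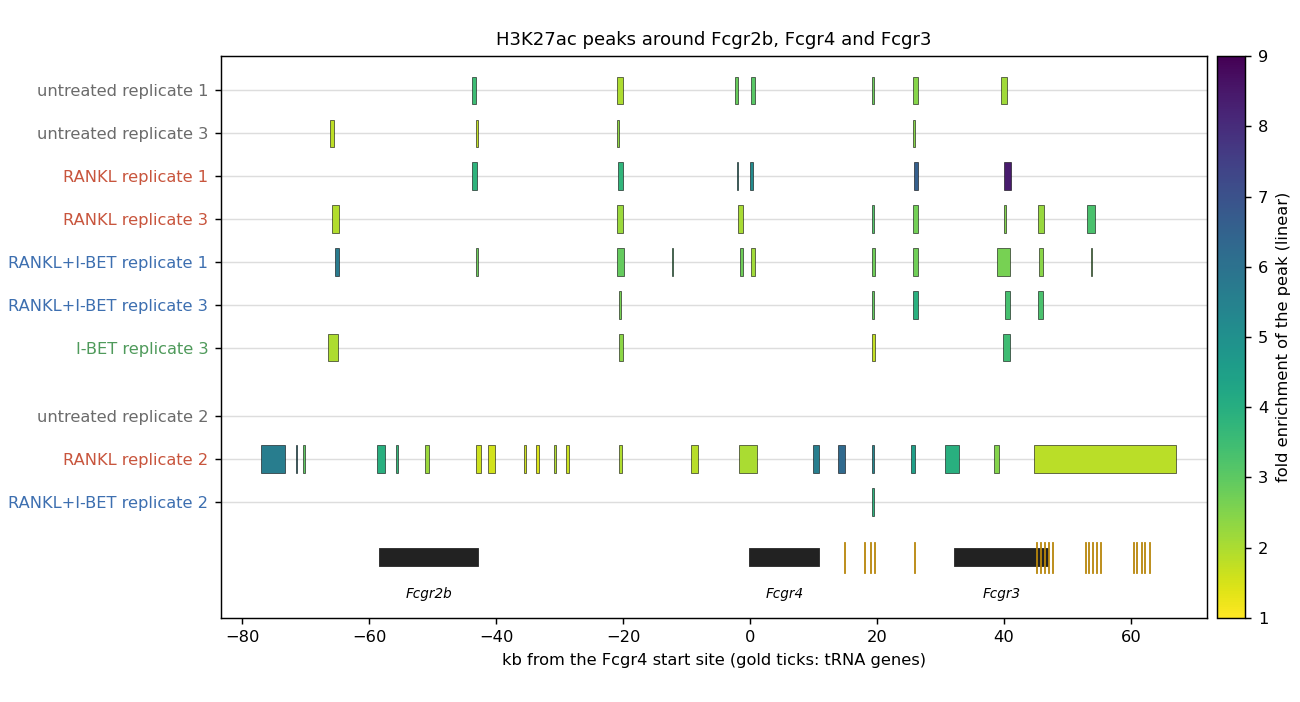
Peaks over Fcgr2b, Fcgr4 and Fcgr3 in each library, by distance in kb from the Fcgr4 start site, with fold enrichment as colour (linear); black bars are the receptor genes and gold ticks the 20 tRNA genes. The untreated list of replicate 2 had no peak here, the RANKL+I-BET list of replicate 2 had 1, and RANKL replicate 2 had a peak of 22362 bp over the tRNA genes beside Fcgr3.

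The stretch that holds the windows of Fcgr2b, Fcgr4 and Fcgr3 was thinly acetylated by comparison. Over its 155.4 kb, peaks covered 4.96 and 1.47 kb in replicates 1 and 3 of the untreated group, 4.02 and 6.35 kb under RANKL, 7.17 and 2.69 kb under both agents and 3.65 kb under I-BET alone. The Fcgr1 window alone, at 61.1 kb, held more in each of these libraries, but much of that lay over the histone genes. Without the histone regions it held less than the stretch in untreated replicate 1 (2.75 kb), RANKL replicate 3 (4.25 kb) and RANKL+I-BET replicate 1 (4.57 kb). It still held more in untreated replicate 3 (4.23 kb), RANKL replicate 1 (4.34 kb), RANKL+I-BET replicate 3 (3.22 kb) and the I-BET library (3.89 kb). Around Fcgr1, 4 of 6 consensus regions were present in all 7 lists numbered 1 or 3, those over the histone genes among them. Of the 12 consensus regions of the stretch 1 was. That region lies 20.005 kb upstream of Fcgr4 (chromosome 1, 170997985 to 170998921), between Fcgr4 and Fcgr2b and in the windows of both, with folds of 1.99 and 2.32 untreated, 3.77 and 2.21 under RANKL, 2.88 and 2.65 under both agents and 2.38 under I-BET alone.

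This stretch also holds 20 tRNA genes, and 15 of them form 3 arrays of 5 that lie 7.63 and 7.61 kb apart, the first of them over the upstream end of Fcgr3. Of the 12 regions 4 lay within 500 bp of a tRNA gene, against 0.433% of all 21013 regions. Peaks near tRNA genes made up 3.43 of 6.35 kb in RANKL replicate 3 and 24.4 of 42.9 kb in RANKL replicate 2, but 0.616 of 4.02 kb in RANKL replicate 1. Arrays of this kind are near-identical copies, and how reads that fit several of them were placed is not given in the sources used here. Values near them are therefore uncertain, and their part in the Fcgr3 and Fcgr4 lengths is given below by leaving these peaks out.

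Fcgr3, the low-affinity activating receptor, had peaks over 2.17 and 0.271 kb of its window in untreated replicates 1 and 3. With RANKL they covered 1.75 and 3.69 kb, under both agents 4.12 and 2.38 kb and under I-BET alone 1.45 kb. Untreated replicate 3 was far below the rest, and the RANKL values fell on either side of untreated replicate 1. Both RANKL+I-BET values lay above both untreated values, as they did for 34.6% of all genes. Fcgr3 was the 1 gene of the 4 for which these groups did not overlap. Away from tRNA genes the lengths were 0.884 and 0 kb untreated, 1.13 and 0.258 kb under RANKL, 2.05 and 0.705 kb under both agents and 1.09 kb under I-BET alone, and the groups all overlapped. In the replicate 2 lists the whole length was 0 kb untreated, 28.3 kb under RANKL and 0.312 kb under both agents, and one peak of 22362 bp with a fold of 1.82 gave most of the RANKL value.

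The Fcgr3 start site had the highest fold of the family under RANKL. A peak lay within 1 kb of it in untreated replicate 1 (2.15) but not in replicate 3, in RANKL replicates 1 and 3 (8.44 and 2.53), in RANKL+I-BET replicates 1 and 3 (2.65 and 3.35) and under I-BET alone (3.47). The value of 8.44 stood at percentile 99.3 of the peaks of its list, and 2.53 at percentile 49.4 of its own, so the RANKL replicates placed it very differently. RANKL replicate 2, with the longest list, had none. The whole promoter window was covered in RANKL replicate 1, both RANKL+I-BET libraries and the I-BET library, and RANKL replicate 3 did not reach it. A region 5.0 kb upstream of this start site (171064363 to 171065250) lay over the upstream end of the gene with Mir6546 and a tRNA gene. RANKL replicates 2 and 3 held it (1.82 and 2.24), and RANKL replicate 1 and the I-BET library did not. Among the lists numbered 1 or 3, both RANKL+I-BET lists and no untreated list held it. Of all regions 2.39% had this pattern and 0.447% the reverse. By all 3 lists 0 of the 18 regions had it, nor its reverse (0.128% and 0.0428% of all), because RANKL+I-BET replicate 2 lacked it.

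Fcgr4, an activating receptor found on myeloid cells, had peaks over 3.37 and 0.611 kb in untreated replicates 1 and 3. With RANKL they covered 2.11 and 2.86 kb, under both agents 3.56 and 1.28 kb and under I-BET alone 0.963 kb. The untreated replicates were farther apart than any of the group means, and both RANKL values lay between them. Away from tRNA genes the lengths were 2.08 and 0.34 kb, 1.498 and 1.60 kb, 2.33 and 0.318 kb, and 0.606 kb in the same order. A start-site peak was found in replicate 1 of each group, with folds of 3.07 untreated, 5.18 under RANKL and 2.13 under both agents, and in RANKL replicate 2 (2.02). None of the 4 lists numbered 3 had one.

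Fcgr2b, the inhibitory receptor, had the shortest mean length of the 4, at 1.42 kb over the 6 libraries. Peaks covered 1.65 and 1.20 kb of its window in untreated replicates 1 and 3, 1.60 and 1.99 kb under RANKL, 1.78 and 0.318 kb under both agents and 2.20 kb under I-BET alone. RANKL+I-BET replicate 3 was far below the others and replicate 1 within their range, so the groups overlapped. Its mean stood at percentile 28.8 among the genes tested, with Fcgr3 at 52.1 and Fcgr4 at 50.2. The start-site peak had folds of 3.51 and 1.76 in untreated replicates 1 and 3, 3.83 in RANKL replicate 1, 1.60 in RANKL replicate 2 and 2.79 in RANKL+I-BET replicate 1. It was absent from RANKL, RANKL+I-BET and I-BET replicate 3, and in the untreated and RANKL+I-BET lists of replicate 2 the stretch around this gene had no peak at all. A distal region 21.992 kb downstream of the start site (170952779 to 170954079) was present in untreated replicate 3 (1.80), RANKL replicate 3 (1.91), RANKL+I-BET replicate 1 (5.72) and the I-BET library (2.00).

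**Figure D3:**
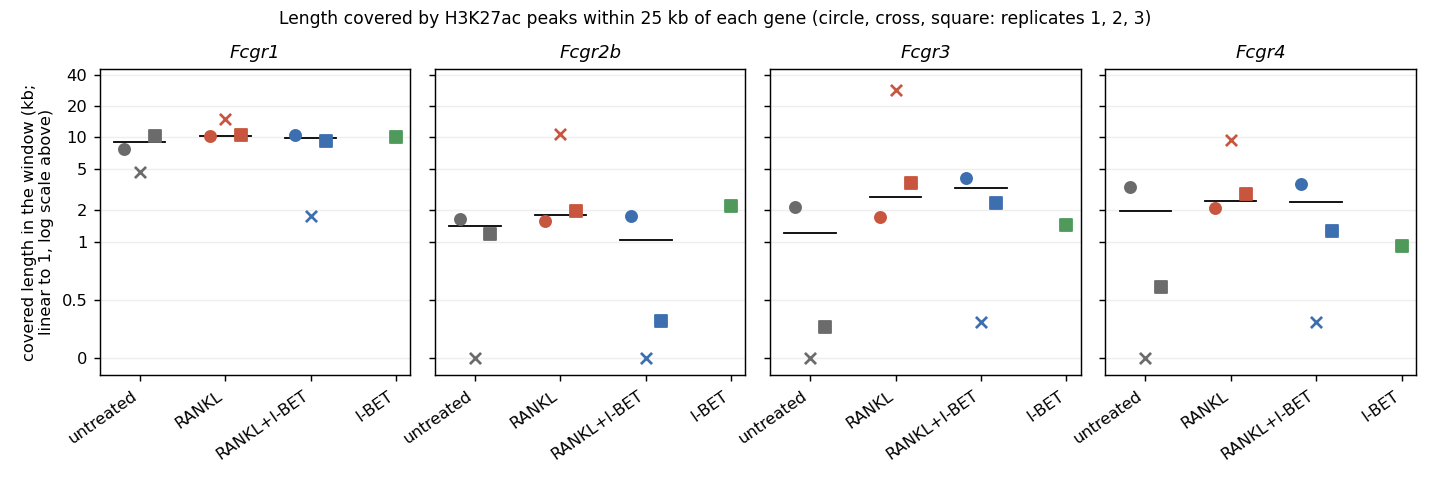
Covered length in kb within 25 kb of each gene by group, on an axis that is linear to 1 kb and logarithmic above it; circles, crosses and squares are replicates 1, 2 and 3, and the line is the mean of replicates 1 and 3. Fcgr1 lies between 7.83 and 10.6 kb in every list numbered 1 or 3, and RANKL replicate 2 is the highest cross for each gene.

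Against the genome as a whole, RANKL lists were longer than untreated lists, and the receptor genes were read beside that shift. Differences are of log2 of the covered length plus 500 bp, over the libraries numbered 1 and 3. For RANKL against untreated they were 0.20 (SE 0.19) for Fcgr1, 1.10 (SE 0.61) for Fcgr3, 0.52 (SE 0.62) for Fcgr4 and 0.26 (SE 0.49) for Fcgr2b. The median of 12186 genes was 0.44, and 92.8% of them were above 0. Fcgr1 and Fcgr2b lay below that median and Fcgr3 and Fcgr4 above it, each by little more than its SE or less. Centring each library on its median, which moves all genes alike, put Fcgr1 at -0.27 and Fcgr2b at -0.20. The sign for Fcgr2b turned with lists reduced to one length (-0.39). The values of Fcgr3 and Fcgr4 rested on the untreated libraries: without replicate 3 they were 0.20 and -0.38, and without replicate 1 they were 1.99 and 1.42. Over whole windows the RANKL values were clear of the untreated ones for 0 of the 4 genes, whereas 53% of all genes were higher without overlap and 1.28% lower.

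For RANKL+I-BET against RANKL the differences were -0.06 for Fcgr1, 0.25 for Fcgr3, -0.14 for Fcgr4 and -0.74 for Fcgr2b, with the same SEs and a median of all genes of -0.14. The signs for Fcgr1, Fcgr3 and Fcgr4 each turned when 1 library was left out, as when RANKL+I-BET replicate 3 was (0.03 for Fcgr1 and 0.46 for Fcgr4) or RANKL replicate 1 was (-0.20 for Fcgr3). The difference of Fcgr2b also rested on single libraries, at -0.0028 without RANKL+I-BET replicate 3 and -1.48 without RANKL+I-BET replicate 1. No member was separated in either direction, in a background of 6.3% higher and 29.7% lower, and 0 of the 18 regions were gained or lost (0.471% and 2.41% of all regions, or 0% and 1.65% by all lists). For RANKL+I-BET against untreated they were 0.14 for Fcgr1, 1.35 for Fcgr3, 0.38 for Fcgr4 and -0.48 for Fcgr2b, beside a median of 0.29. Here 1 of 4, Fcgr3, was higher without overlap, as were 34.6% of all genes, and 0 were lower (2.87%). With lists reduced to one length the signs for Fcgr3 and Fcgr4 turned (-0.26 and -0.84). With 1 library left out, those for Fcgr1 (-0.05 without untreated replicate 1), Fcgr2b (0.26 without RANKL+I-BET replicate 3) and Fcgr4 (-0.52 without untreated replicate 3) turned as well, and Fcgr3 ranged from 0.45 without untreated replicate 3 to 2.24 without untreated replicate 1. These comparisons share their libraries with each other. No start-site peak of the 4 genes was gained with RANKL or lost between RANKL and RANKL+I-BET, in a background of 1.74% and 0.583% of genes.

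**Figure D4:**
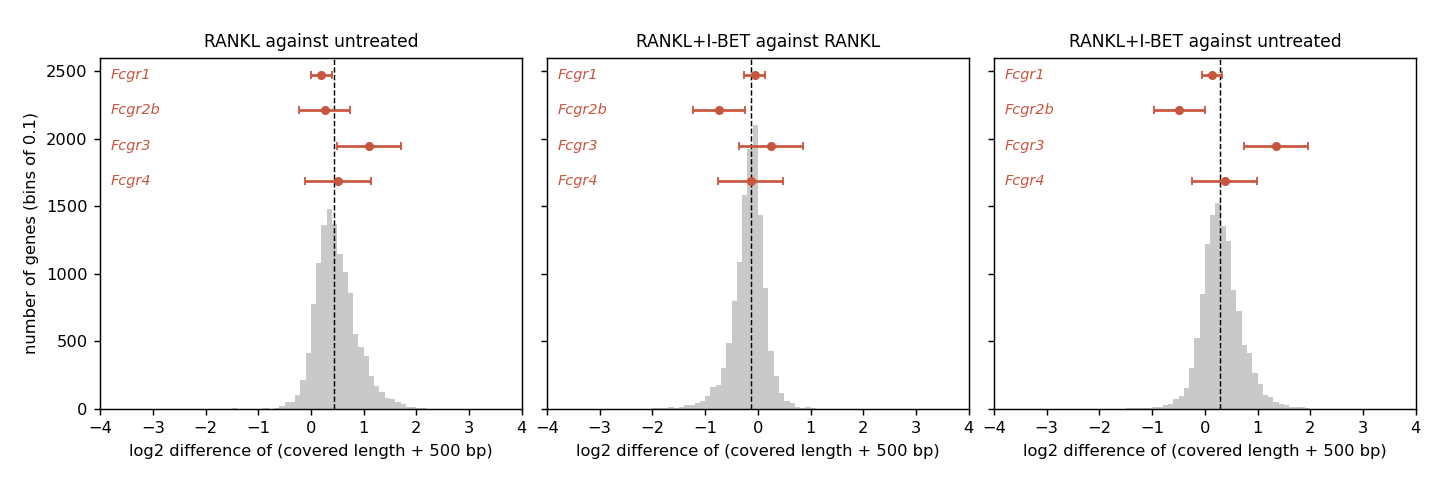
Distribution over 12186 genes of the log2 difference of covered length plus 500 bp in the 3 comparisons, in bins of 0.1 (grey; the dashed line is the median), with the receptor genes as points and their SE as bars. Fcgr1 has the shortest bars and lies at -0.24, 0.07 and -0.15 from the median in the 3 comparisons, from left to right. Fcgr3 lies farthest above the median for RANKL+I-BET against untreated.

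In these fits limma called 0 of 12186 genes (0%) in each comparison at an adjusted p under 0.05, with 1767, 289 and 813 genes at an unadjusted p under 0.05. Untreated replicate 3 decided this for 2 comparisons. Without it, 2401 of 12225 genes were called for RANKL against untreated (2390 higher) and 860 for RANKL+I-BET against untreated (848 higher), with untreated replicate 1 assumed to vary like the other groups. With the 6 lists reduced to their peaks of highest -log10 p until each covered 16.1 Mb, the share of genes above 0 turned from 92.8% to 51.6%, from 26.8% to 49.8% and from 82.6% to 52.1% in the 3 comparisons. The lengths then stood for Fcgr1 at 7.83 and 10.3 kb untreated, 9.97 and 8.54 kb under RANKL and 10.6 and 9.30 kb under both agents. For Fcgr2b RANKL replicate 3 was at 0, for Fcgr3 RANKL+I-BET replicate 1 was at 0, and so the separation of Fcgr3 was lost.

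**Figure D5:**
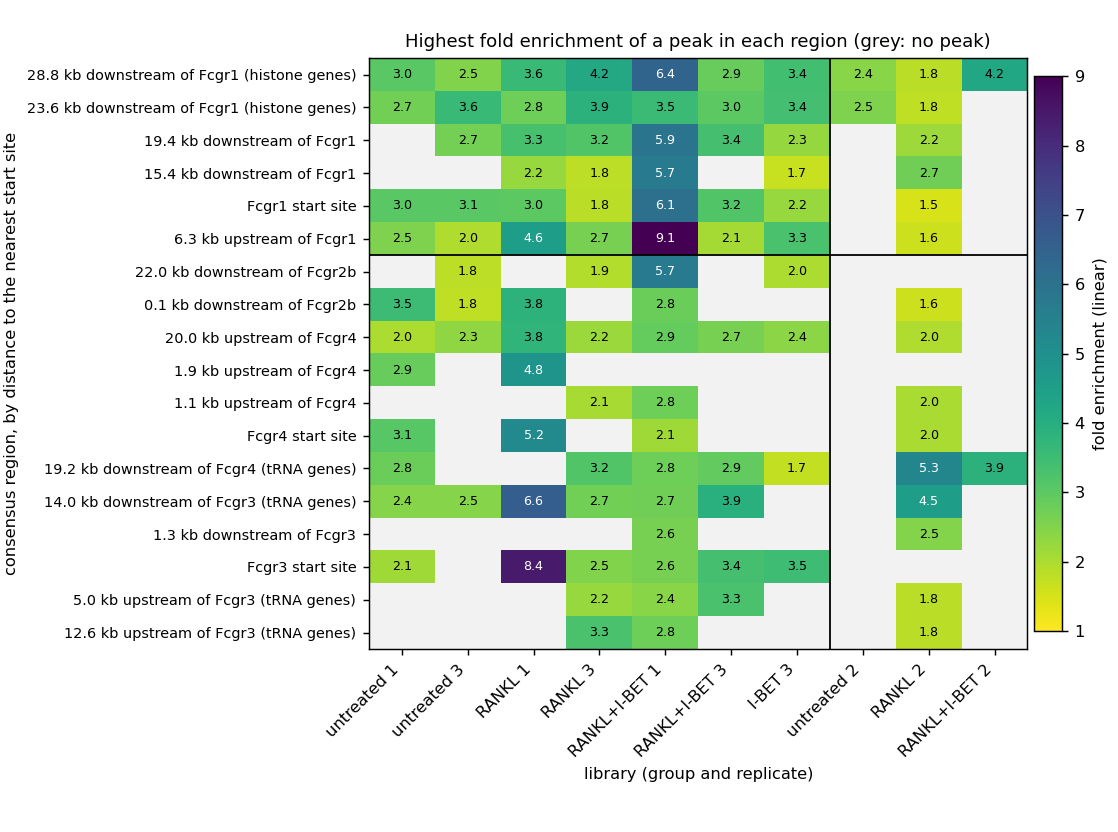
Highest fold enrichment of a peak in each of the 18 consensus regions (rows, by distance to the nearest of the 4 start sites) in each library (columns), with grey for no peak. The 6 regions around Fcgr1 above the horizontal line are filled in most libraries, while the 12 regions around Fcgr2b, Fcgr4 and Fcgr3 below it are patchy, and RANKL+I-BET replicate 1 holds 11 of these 12.

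Around Fcgr1, untreated replicates 1 and 3 held 4 and 5 of 6 regions, the RANKL replicates 6 and 6, the RANKL+I-BET replicates 6 and 5 and the I-BET library 6. On chromosome 1, where replicates 1 and 3 of a group differed by up to 6 regions, they held 7 and 4 of 12 untreated, 6 and 8 under RANKL, 11 and 5 under both agents and 4 under I-BET alone. The replicate 2 lists held 2 and 0 (untreated), 6 and 9 (RANKL) and 1 and 1 (RANKL+I-BET) of the 6 and 12.

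Genes of the receptor pathway were then read from lists that were written with earlier results known. Of 9 Fc receptor partners 5 had enough covered length to be tested, of 23 ITAM kinases and adaptors 22, of 12 inhibitory phosphatases and receptors all 12, and of 25 phagocytosis effectors 24. In limma 0 of these passed the threshold in any comparison, in either direction. For RANKL against untreated the difference was above 0 for 4 of 5, 21 of 22, 10 of 12 and 24 of 24, with list medians of 0.34, 0.39, 0.42 and 0.41 beside the median of 0.44 over all genes. With the lists reduced to one length the medians were 0.21, 0.05, -0.15 and -0.14 beside 0.03, so the direction of the last 2 lists turned. Without untreated replicate 3 limma called 1 ITAM gene (the kinase gene Btk), 3 inhibitory genes (Dok2, Inpp5d and Ptpn11) and 3 phagocytosis genes (Myo1e, Rac2 and Was) as higher with RANKL, which is 7 of 63 tested against 19.6% of all genes.

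For RANKL+I-BET against RANKL the 4 list medians were -0.01, -0.15, -0.14 and -0.08 beside -0.14 over all genes, and for RANKL+I-BET against untreated they were 0.30, 0.24, 0.36 and 0.27 beside 0.29. With the lists reduced to one length they were -0.24, -0.09, 0.35 and 0.28 beside -0.00063, and -0.03, 0.07, 0.21 and 0.19 beside 0.03. The direction turned for the inhibitory and phagocytosis lists in the former comparison and for the Fc receptor partners in the latter. Fcer1g, the signalling partner of the 3 activating receptors, was covered over 7.31 and 7.65 kb in replicates 1 and 3 of the untreated group, 8.64 and 10.6 kb under RANKL, 9.49 and 10.1 kb under both agents and 10.8 kb under I-BET alone. The RANKL and RANKL+I-BET libraries lay above the untreated ones without overlap, as they did for 53% and 34.6% of all genes. The limma log2 difference for RANKL was 0.34 (SE 0.18, adjusted p = 0.367), beside a median of 0.44 over all genes. The other partners with the longest coverage, the neonatal Fc receptor gene Fcgrt and the Fc receptor-like gene Fcrlb, had means of 4.31 and 1.02 kb over the 6 libraries and differences of 0.15 (SE 0.30) and 0.67 (SE 0.75). The Ig receptor genes Fcer1a, Fcmr and Pigr had a mean of 0 kb.

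Genes of long coverage on the ITAM list were Pik3r5, a regulatory subunit of PI3-kinase (mean 18.8 kb), and Vav1, an exchange factor for Rac (9.39 kb). Their differences for RANKL against untreated were 0.45 (SE 0.14) and 0.37 (SE 0.22). On the inhibitory side the longest coverage was that of the receptor gene Cd300a (16.95 kb), Ptpn6, which encodes the phosphatase SHP-1 (15.0 kb), and Inpp5d (14.05 kb), with differences of -0.10 (SE 0.14), 0.32 (SE 0.15) and 0.34 (SE 0.22). Inpp5d, the effector of Fcgr2b, had 8.84 and 13.8 kb untreated, 13.4 and 15.0 kb under RANKL, 16.6 and 16.7 kb under both agents and 16.5 kb under I-BET alone. Its untreated and RANKL values overlapped, and both RANKL+I-BET values lay above both RANKL and both untreated values. Of all genes 6.3% were higher without overlap for RANKL+I-BET against RANKL and 34.6% for RANKL+I-BET against untreated. Among phagocytosis effectors the myosin gene Myo1e (16.6 kb), the GTPase gene Rac2 (11.9 kb) and Elmo1, part of an exchange factor for Rac (11.03 kb), had differences of 0.87 (SE 0.28), 0.34 (SE 0.26) and 0.38 (SE 0.19). The limma adjusted p of these 8 genes ran from 0.341 to 0.622.

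The genes whose covered length followed each receptor gene most closely over the 7 lists numbered 1 or 3 were found by Pearson's r of log2 length among 12075 genes. They are a description, since so many genes are ranked over so few lists that share their total lengths. For Fcgr1 these were Cldn20 (0.996), Foxn2 (0.995) and Gca (0.995), and for Fcgr2b Zfp748 (0.980), Appl2 (0.964) and Pttg1 (0.963). For Fcgr3 they were Rapgef4 (0.982), Eepd1 (0.979) and Paxbp1 (0.973). For Fcgr4 they were Hint3 and Trmt11 (0.988 each), which share the same peaks, and Sema3g (0.986).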

How the data were processed

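H3K27ac was mapped in 10 immunoprecipitated libraries. The submitters' processing notes name FastQC, Bowtie2, MACS2 and the build mm10 (GRCm38); versions, settings and controls are not given in the sources used here. The deposited broad-peak lists give a fold enrichment (a linear ratio over local background), a score, and -log10 p and q values for each peak, all the authors' own and used only to describe or filter peaks within a list. The columns carry no header and were identified by their layout.

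Genes and start sites came from RefSeq tables (GRCm38.p6), in which all 4 genes matched by symbol. A consensus region was covered by at least 2 of 10 lists, and a list held it with 1 bp or more. Base pairs covered in each gene plus 25 kb on either side were taken as log2 of length plus 500 bp. limma 3.58.1 (R 4.3.3, trended prior) was fitted to all protein-coding genes with a mean of at least 500 bp in the 6 libraries numbered 1 and 3, with Benjamini-Hochberg adjustment. The code was tested on simulated data. The receptor genes were chosen from these data and so have values and SEs and no test. Members, lists and settings were chosen with earlier results of these data known. Besides the 4 genes and all their regions, the text names list genes past the limma threshold, otherwise the 3 of each list with the longest mean coverage, and the 3 genes most like each member; 1 gene that this rule names is not reported here. Btk, Dok2, Inpp5d, Ptpn11, Myo1e, Rac2 and Was were named for their calls without 1 library, after their values were seen. Deviations from group means correlated between libraries of the same number at 0.143 to 0.422 over 9 pairs, against -0.371 to 0.0405 for other numbers. Libraries of the same number may therefore be paired. The main fits held no replicate term, so their SEs and p values are unpaired, and pairing entered only in the replicate block. Of 45 pairs of lists, none shared more than 1 identical peak. Alternatives were other list lengths, thresholds, windows, pseudocounts, filters, a replicate block, and each library left out. Python 3.11.15 was used.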

Additional observations from a re-analysis of the deposited data

Results flagged for a closer look

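In the replicate 3 libraries, the set in which I-BET was also given alone, the covered length of 3 of the 4 receptor genes differed with I-BET in opposite directions with and without RANKL. With I-BET alone it exceeded untreated by 1.003 kb for Fcgr2b, 1.179 kb for Fcgr3 and 0.352 kb for Fcgr4. With RANKL the difference between RANKL+I-BET and RANKL was -1.673 kb for Fcgr2b, -1.312 kb for Fcgr3 and -1.579 kb for Fcgr4. For Fcgr1 both differences were below 0, at -0.115 and -1.24 kb. Without peaks near tRNA genes, Fcgr3 had 0 kb untreated, 1.09 kb with I-BET alone, 0.258 kb with RANKL and 0.705 kb with both agents. Both differences of Fcgr3 were then above 0. Those of Fcgr4, from 0.34, 0.606, 1.60 and 0.318 kb in the same order, kept opposite directions. Each value rests on 1 list per condition, the windows of Fcgr4 overlap those of the other 2 genes, and the difference between the I-BET effects was not tested. The whole lists covered 19.5 Mb untreated, 19.6 Mb with I-BET alone, 25.9 Mb with RANKL and 20.6 Mb with both agents, and the part of this in these values was not tested.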

How the results depend on the processing

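The number of genes called stayed at 0 in each comparison under every setting except without untreated replicate 3 (range over libraries left out 0 to 2401 for RANKL against untreated, 0 to 0 for RANKL+I-BET against RANKL and 0 to 860 for RANKL+I-BET against untreated). The replicate block changed no call (0 genes in each comparison; smallest adjusted p 0.228, 1 and 0.490).

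Regions gained and lost were 1038 and 40 for RANKL against untreated, 99 and 506 for RANKL+I-BET against RANKL and 502 and 94 for RANKL+I-BET against untreated. In the same order they were 719 and 0, 0 and 347, and 27 and 9 by all 3 lists; 559 and 1264, 937 and 737, and 429 and 904 at one list length; 1237 and 40, 383 and 863, and 683 and 56 with a -log10 q of at least 5; and 1844 and 61, 217 and 841, and 1117 and 131 with 50% coverage of a region. With 1 library left out, gained regions ranged from 2136 to 3255, 262 to 951 and 811 to 2360, and lost regions from 174 to 1027, 752 to 2115 and 180 to 1270, since fewer lists then have to agree.

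Of 198 recomputed differences of the 4 genes, 170 kept their sign and 159 moved by less than the spread. Part of these could not move. The replicate block, dropping the filter on low values and leaving out a library of the group not compared each return the same difference. The 2 counts are therefore no measure of stability. The cause of the changes of sign was not tested. For RANKL against untreated they ranged from -1.42 to 1.96 for Fcgr1, -0.39 to 1.67 for Fcgr2b, 0.20 to 2.68 for Fcgr3 and -0.38 to 1.78 for Fcgr4. Leaving out the histone regions (Fcgr1, 0.29) or peaks near tRNA genes (Fcgr3, 0.42; Fcgr4, 0.48), chosen after seeing the data, kept the sign. No counts were available, so depth limits could not be given.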
